A study of Homo sapiens with 21 samples.

Results

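*RBM20* and 5 genes whose transcripts it is known to splice, *TTN*, *LDB3*, *CAMK2D*, *PDLIM3* and *PDLIM5*, were followed transcript by transcript through the differentiation of human induced pluripotent stem cells (iPSCs) into cardiomyocytes (CMs) and in CMs that lack *UBE2B*. Members were chosen by gene symbol, with earlier results of these data known. Every row of the 6 deposited comparisons that carried 1 of the 6 symbols was taken. Of 116 annotated transcripts of these genes, 40 were listed in at least 1 comparison, among 21537 listed transcripts of 11851 genes in the whole series. They were 10 transcripts of *TTN*, 10 of *PDLIM5*, 7 of *CAMK2D*, 6 of *LDB3*, 6 of *PDLIM3* and 1 of *RBM20*.

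All libraries came from PGP1, an established human iPSC line. Wild-type cells were collected as iPSCs, mesoderm (M), cardiac mesoderm (CMes), cardiac progenitors (CP) and CMs, and CMs were also collected from UBE2B-/- line 1 and UBE2B-/- line 2. Each of these 7 groups had 3 libraries of poly-A selected RNA, 21 in all, each replicate from a plate that began differentiation on its own date. *UBE2B* is a ubiquitin-conjugating enzyme that acts with RNF20 and RNF40 in placing ubiquitin on histone H2B, and each line descends from picked colonies after CRISPR-Cas9 editing, so a line is 1 clone. CMs of wild type and of both lines were taken from beating wells only and had been selected with lactate. The UBE2B-/- cells had been seeded more densely than wild type, and only part of their wells beat.

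*RBM20* is an RNA-binding protein of heart and skeletal muscle that binds UCUU in introns and mostly keeps nearby exons out of the mature transcript. Loss of its function leaves titin long and compliant, and *RBM20* mutations cause dilated cardiomyopathy. Its targets meet at the sarcomere and at calcium handling: titin is the molecular spring from Z-disc to M-band, *LDB3*, *PDLIM3* and *PDLIM5* are PDZ and LIM domain proteins of the Z-disc that bind alpha-actinin, and *CAMK2D* is the main calcium/calmodulin-dependent kinase of the heart.

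The genes lie at chr10:110644336-110839468 on the plus strand (*RBM20*), chr10:86666785-86736072 on the plus strand (*LDB3*), chr2:178525989-178830802 on the minus strand (*TTN*), chr4:113418054-113761927 on the minus strand (*CAMK2D*), chr4:185500660-185535507 on the minus strand (*PDLIM3*) and chr4:94451857-94668227 on the plus strand (*PDLIM5*) of GRCh38. Of the 40 listed transcripts, 32 are annotated as protein coding, 5 as retaining an intron, 2 as targets of nonsense-mediated decay and 1 without a defined coding sequence, and 7 are incomplete at an end. Complete coding transcripts of the same gene differed by 190 internal coding exons that at least 1 of them has and another skips, 173 of them in *TTN* and 17 in the other genes. No exon of *RBM20* varied, because a single *RBM20* transcript was listed.

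The exons below separate the transcripts that the results turn on, and each is printed 5′ to 3′ in the direction of its gene, from the hg38 reference sequence, with the exon in capitals and the flanking intron in lower case. The 33-base exon of *CAMK2D*, which encodes the nuclear localization signal of the delta-B form, is carried by CAMK2D-208 and by no other listed *CAMK2D* transcript, and the 42-base exon by CAMK2D-204 alone.
CAMK2D 33-base exon, chr4:113508176-113508328 (minus strand): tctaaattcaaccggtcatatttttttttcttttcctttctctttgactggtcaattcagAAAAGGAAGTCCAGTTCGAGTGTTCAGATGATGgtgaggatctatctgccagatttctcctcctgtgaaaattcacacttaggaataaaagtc
CAMK2D 42-base exon, chr4:113502876-113503037 (minus strand): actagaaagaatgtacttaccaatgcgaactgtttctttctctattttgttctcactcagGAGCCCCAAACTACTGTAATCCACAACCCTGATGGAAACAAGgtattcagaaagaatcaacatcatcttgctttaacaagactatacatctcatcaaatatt
Among the complete coding forms, the 204-base exon of *LDB3* is in LDB3-205 and LDB3-204, whereas the 189-base exon is in LDB3-202 and is skipped by LDB3-205.
LDB3 204-base exon, chr10:86687029-86687312 (plus strand): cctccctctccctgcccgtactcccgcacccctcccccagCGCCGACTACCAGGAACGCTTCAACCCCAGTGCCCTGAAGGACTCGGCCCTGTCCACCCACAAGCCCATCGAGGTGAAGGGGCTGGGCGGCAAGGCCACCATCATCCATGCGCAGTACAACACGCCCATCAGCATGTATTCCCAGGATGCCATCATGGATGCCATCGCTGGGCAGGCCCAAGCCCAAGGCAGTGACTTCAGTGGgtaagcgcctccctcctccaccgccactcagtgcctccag
LDB3 189-base exon, chr10:86706491-86706759 (plus strand): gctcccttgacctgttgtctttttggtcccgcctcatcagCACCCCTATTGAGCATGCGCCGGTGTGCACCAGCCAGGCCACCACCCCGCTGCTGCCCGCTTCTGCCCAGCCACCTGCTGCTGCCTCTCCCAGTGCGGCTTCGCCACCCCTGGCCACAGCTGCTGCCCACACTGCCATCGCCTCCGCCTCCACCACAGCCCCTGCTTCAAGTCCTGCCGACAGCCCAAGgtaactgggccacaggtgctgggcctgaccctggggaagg
PDLIM3-203 carries a 188-base exon where PDLIM3-201 carries a 68-base exon, followed further on by a 264-base exon that PDLIM3-203 lacks.
PDLIM3 188-base exon, chr4:185514663-185514930 (minus strand): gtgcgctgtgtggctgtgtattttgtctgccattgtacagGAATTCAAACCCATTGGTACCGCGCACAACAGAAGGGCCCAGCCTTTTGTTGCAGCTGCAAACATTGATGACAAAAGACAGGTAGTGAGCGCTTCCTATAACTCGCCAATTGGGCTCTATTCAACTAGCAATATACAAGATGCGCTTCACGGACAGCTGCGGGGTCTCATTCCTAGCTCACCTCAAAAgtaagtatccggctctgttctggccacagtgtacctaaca
PDLIM3 68-base exon, chr4:185514210-185514397 (minus strand): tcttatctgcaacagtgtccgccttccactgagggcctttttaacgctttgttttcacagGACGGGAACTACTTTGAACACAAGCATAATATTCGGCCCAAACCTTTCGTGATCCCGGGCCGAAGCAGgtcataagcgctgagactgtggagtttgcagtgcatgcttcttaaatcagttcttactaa
Among the complete coding forms of *PDLIM5*, the 18-base exon is shared by PDLIM5-222, PDLIM5-210, PDLIM5-207 and PDLIM5-202 and skipped by PDLIM5-201. The 120-base and 132-base exons, with a 144-base exon between them, are in PDLIM5-222 alone. The 15-base exon of PDLIM5-202 stands out by its preceding intron, of which the last 150 bases are printed with each TCTT in capitals.
PDLIM5 18-base exon, chr4:94584926-94585063 (plus strand): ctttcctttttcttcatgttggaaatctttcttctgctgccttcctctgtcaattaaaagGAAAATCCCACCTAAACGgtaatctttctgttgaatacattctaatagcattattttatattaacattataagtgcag
PDLIM5 120-base exon, chr4:94607999-94608238 (plus strand): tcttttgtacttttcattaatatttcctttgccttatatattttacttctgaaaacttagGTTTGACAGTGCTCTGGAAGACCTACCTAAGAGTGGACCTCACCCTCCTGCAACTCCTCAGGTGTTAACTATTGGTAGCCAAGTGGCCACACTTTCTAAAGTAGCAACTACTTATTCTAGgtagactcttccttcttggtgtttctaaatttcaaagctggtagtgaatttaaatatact
PDLIM5 132-base exon, chr4:94611009-94611260 (plus strand): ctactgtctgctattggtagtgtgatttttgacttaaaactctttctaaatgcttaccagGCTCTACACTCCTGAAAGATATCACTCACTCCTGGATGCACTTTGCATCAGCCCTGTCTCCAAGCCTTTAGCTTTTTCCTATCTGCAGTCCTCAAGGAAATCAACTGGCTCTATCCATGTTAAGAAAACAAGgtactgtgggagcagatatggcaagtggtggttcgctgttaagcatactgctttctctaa
*PDLIM5* intron before the 15-base exon, chr4:94582567-94582716 (plus strand): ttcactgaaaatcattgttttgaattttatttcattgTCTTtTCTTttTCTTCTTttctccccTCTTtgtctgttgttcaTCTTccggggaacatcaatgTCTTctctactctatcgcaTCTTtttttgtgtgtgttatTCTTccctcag
The 138-base exon of *TTN* is in TTN-202, TTN-204 and TTN-214 and is skipped by TTN-212 and TTN-201.
TTN 138-base exon, chr2:178790648-178790905 (minus strand): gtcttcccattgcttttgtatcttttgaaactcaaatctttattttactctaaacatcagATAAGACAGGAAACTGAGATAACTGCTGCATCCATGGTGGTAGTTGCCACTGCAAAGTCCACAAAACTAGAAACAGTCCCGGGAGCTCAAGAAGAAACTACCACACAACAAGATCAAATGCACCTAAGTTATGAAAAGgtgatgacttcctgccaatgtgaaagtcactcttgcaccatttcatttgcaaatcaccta

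The RNA motif UCUU reads TCTT in the DNA of the gene's own strand, and it was counted, overlaps included, in the 150 bases on either side of each variable exon. Over 168538 internal coding exons of protein-coding genes, 84.9% had at least 1 TCTT in these windows, with a mean of 2.33. All 190 variable exons of the members had at least 1, with means of 4.90 for *TTN*, 5.25 for *PDLIM5*, 5.00 for *PDLIM3*, 3.50 for *CAMK2D* and 1.25 for *LDB3*. The *LDB3* mean was under that of all exons, and in *TTN* the windows can reach into neighboring exons. In *PDLIM5*, a 92-base and a 419-base exon that end at the same base were both counted. The window before the 92-base exon lies inside the 419-base one. On the opposite strand, counted as AAGA, the mean was 1.80 over the members' exons and 1.40 over all exons. The 138-base *TTN* exon had 3 TCTT before and 6 after it, a total of 9 or more being found at 0.367% of all exons. The 33-base *CAMK2D* exon had 4, the 42-base exon 3, the 188-base *PDLIM3* exon 6 and the 18-base *PDLIM5* exon 6, whereas the 204-base and 189-base *LDB3* exons had 1 each. The 15-base *PDLIM5* exon had 10, 9 of them in the intron window printed above. These counts describe letters and not binding sites.

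The values are the coefficients of the deposited Wald tests, given here as log2 changes with standard error (SE), and levels are geometric means over 3 libraries in Kallisto's estimated counts. Only transcripts with a q-value of at most 0.05 are listed. A transcript that is not listed was either below the test's filter or missed that limit. How many member transcripts were tested is therefore unknown, so counts of listed members and shares of all tested transcripts have different bases. A transcript was called when it was listed and its coefficient was at least 0.585 in size on the natural-log scale. This is the log2 of 1.5 and, since the coefficients are natural logs, it is 1.79-fold. A limit of 1.5-fold on their own scale gained 4 calls, each marked as under the size limit. Values of single libraries are not held here, so the spread between libraries is given as the residual SD that the same tables hold, and the sequencing depth is unknown. In bulk RNA, fewer cells of a type and less RNA per cell cannot be told apart.

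Before the CP stage, few member transcripts were listed. *RBM20* mRNA was measured as RBM20-201 (ENST00000369519.4), a full-length form of 14 exons, and rose from 23.0 estimated counts in iPSCs to 96.9 in M, a log2 change of 2.05 ± 0.58 (q = 0.0124). It rose again from 104 in M to 499 in CMes, by 2.26 ± 0.44 (q = 1.09e-05). The step from CMes to CP was not listed for *RBM20*. With the tables set on 1 scale through their shared stages, its level was 21.9, 92.3, 444, 707 and 7638 estimated counts from iPSC to CM.

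Of 5 member transcripts called from iPSC to M, 4 were higher and 1 was lower, where 1.24% of the 68446 tested transcripts of the series were called higher and 1.62% lower. The higher ones were *RBM20* and 3 transcripts of *CAMK2D*. CAMK2D-205 (ENST00000394524.7), the most abundant of them, rose by 1.44 ± 0.23 (q = 3.25e-08), from 211 to 573 estimated counts, and CAMK2D-204 (ENST00000394522.7) by 1.96 ± 0.49 (q = 0.00234). CAMK2D-201 (ENST00000296402.9) rose by 1.18 ± 0.36 (q = 0.0261). None of the 3 *CAMK2D* pairs passed a test of the difference between their changes, which was at most -0.78 ± 0.61, q = 0.664. The lower one was TTN-204 (ENST00000360870.9), the short novex-3 form of titin that ends in an exon of its own and never reaches the A-band, which fell by 3.29 ± 0.84 (q = 0.00370) from 50.0 to 4.65 estimated counts.

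From M to CMes, 2 member transcripts were called higher and 1 lower, beside 3.81% and 2.65% of the 70285 tested. TTN-204 rose by 2.99 ± 0.89 (q = 0.0111), from 4.97 to 43.1 estimated counts. PDLIM3-203 (ENST00000284771.6) fell by 2.13 ± 0.45 (q = 8.58e-05), from 123 to 27.5. Neither *LDB3* nor *PDLIM5* was listed in these first steps. With a t distribution of 4 residual degrees of freedom in place of the Wald test's normal one, 0 calls of either step remained. Of all transcripts in the series, 0 remained called as well. All 5 and all 3 listed transcripts had an unadjusted p under 0.05, which the q-value limit for listing had already ensured.

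**Figure D1:**
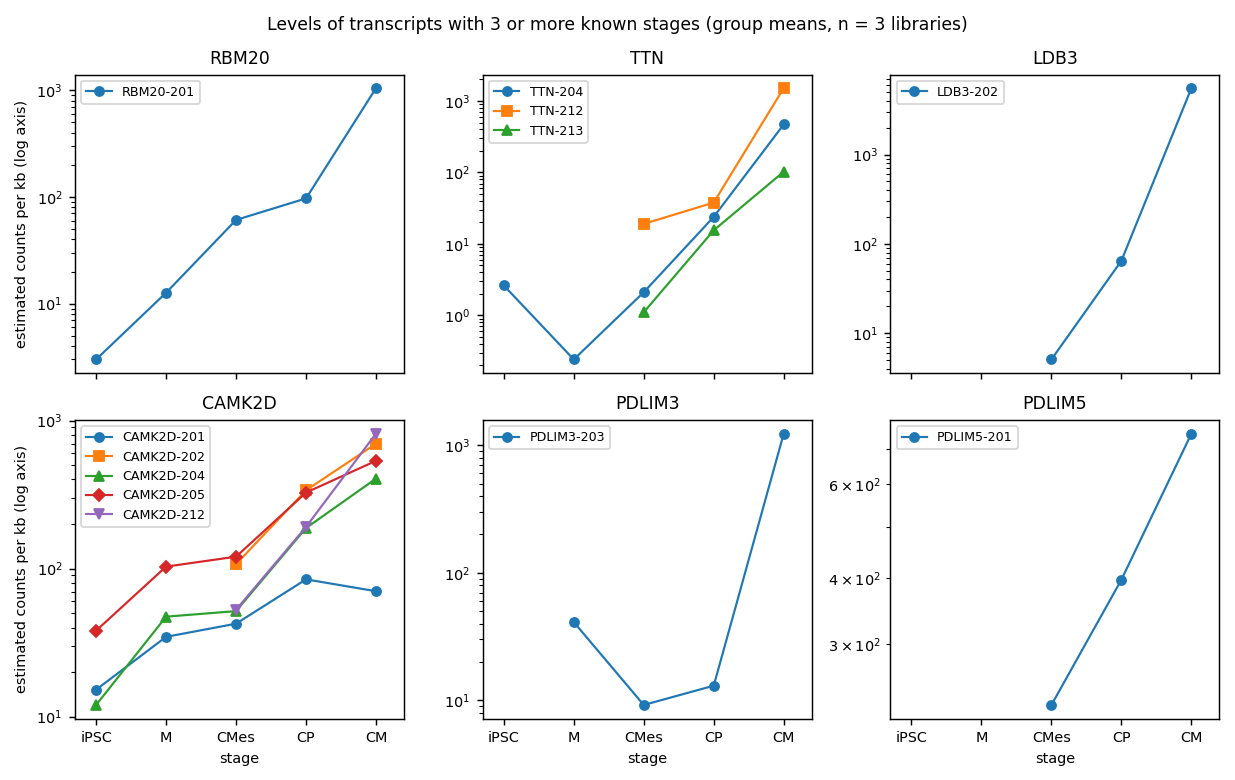
Levels per kilobase of spliced length (estimated counts per kb, log axis) of member transcripts known at 3 or more stages, 1 panel per gene, with each point a group mean of 3 libraries after the tables were set on 1 scale. RBM20-201 is highest in CM at 1047 per kb, and CAMK2D-201 is the 1 transcript whose CM level, 70.3 per kb, is under its CP level, 84.6.

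From CMes to CP, 10 member transcripts were listed, all of them higher, and 9 were called. Among the 71328 tested, 3.8% were called higher and 2.63% lower, which is 2711 and 1877 of the 7519 listed in the series. LDB3-202 (ENST00000361373.8), the long form with LIM domains, rose by 3.65 ± 0.35 (q = 3.70e-23), from 30.9 to 393 estimated counts. TTN-212 (ENST00000460472.6), known as N2B, the short stiff cardiac form, rose by 0.99 ± 0.13 (q = 9.39e-12), from 1762 to 3509. In CMes it already held more estimated counts than the other 2 listed titin transcripts.

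Titin's transcripts did not move by the same amount at this step. TTN-204 rose by 3.49 ± 0.38 (q = 1.37e-17), and the difference between TTN-212 and TTN-204 was -2.49 ± 0.41, q = 4.94e-08. The retained-intron transcript TTN-213 (ENST00000470257.1) rose by 3.55 ± 1.06, 95% interval 1.47 to 5.64 (q = 0.0108), from 2.70 to 37.0 estimated counts. All 5 listed *CAMK2D* transcripts were called higher, by 0.99 ± 0.25 for CAMK2D-201 (q = 0.00101) to 1.86 ± 0.19 for CAMK2D-204 (q = 2.32e-20), and these 2 differed by -0.87 ± 0.31, q = 0.0386. PDLIM5-201 (ENST00000317968.9), a full-length form, was listed but under the size limit, with 0.78 ± 0.14 (q = 8.26e-07). Of 13 pairs of transcripts of 1 member gene, 2 differed in their change at q of at most 0.05, beside 14.9% of the 3614 such pairs over all genes. With the t distribution 0 of the 9 calls and 0 of the pairs remained, and 1 transcript of the whole series remained called. All 10 listed transcripts had an unadjusted p under 0.05, which the q-value limit for listing had already ensured.

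Between CP and CM, 38 member transcripts were listed, and all but 1 were higher in CM. Of these, 36 were called higher and 1 lower, beside 8.25% and 6.99% of the 69937 tested. Of the 12982 transcripts listed in the series, 5767 were called higher and 4886 lower. All 6 genes had a called transcript, and 27 member transcripts appeared in no earlier step. The median log2 change of the 37 called transcripts was 5.07. It was 4.58 when the 7 transcripts at 0 in all CP libraries were set to the change from 3 counts, and 3.97 when all 17 under 3 counts in CP were, both settings chosen after the data were seen. By the most abundant called transcript of each gene, the median was 4.38 over the 6 members, all of them higher. Over all 6380 called genes, 3367 higher and 3013 lower, it was 0.91. That value mixes both directions and is not a typical size of change.

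*RBM20* rose by 3.43 ± 0.30 (q = 5.14e-28), from 707 estimated counts in CP to 7638 in CM, with a residual SD of 0.37 between libraries. The rise was several times this spread.

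All 9 listed *TTN* transcripts were called higher. TTN-212 (N2B) rose by 5.32 ± 0.48 (q = 2.04e-26), from 3107 to 124336 estimated counts. TTN-202 (ENST00000342992.10), known as N2A, has 122 exons (22272 bases) that N2B skips and lacks 1 exon of 2781 bases that N2B has. N2A rose by 6.04 ± 0.57 (q = 1.61e-24), from 1047 to 68935. TTN-204 (novex-3) rose by 4.30 ± 0.42 (q = 1.02e-22), from 435 to 8558. The changes of N2B and N2A differed by -0.72 ± 0.74, q = 0.594, a difference within its error.

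Per kilobase the titin order in CM was N2B (1516 estimated counts per kb), N2A (679), novex-3 (469.7), TTN-206 (305) and TTN-213 (102). TTN-206 (ENST00000414766.5) is a 32-exon fragment, 30 of whose exons are in N2A and 5 in N2B. It rose by 9.12 ± 1.21, 95% interval 6.75 to 11.49 (q = 2.15e-12), from 1.09 to 881 estimated counts, and its rise was larger than that of N2B, the difference being -3.80 ± 1.30, q = 0.0209. The residual SD of these levels was 0.59 for N2B, 0.69 for N2A and 0.51 for novex-3 on the log2 scale, so the gap between N2A and novex-3 in CM was within the SD of N2A.

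The retained-intron transcript TTN-213 had the smallest rise of the titin transcripts, 2.71 ± 0.47 (q = 1.48e-07), and differed from TTN-206 by -6.41 ± 1.30, q = 1.25e-05. Its share of the listed titin transcripts per kilobase was 17.0% in CP and 3.18% in CM, whereas N2A went from 11.3% to 21.1%. The remaining titin transcripts were scarce. TTN-216 (ENST00000634225.1), TTN-209 (ENST00000436599.1) and TTN-208 (ENST00000426232.5) are fragments from under 3 estimated counts in CP, and their changes of 4.69, 4.64 and 5.64 had 95% intervals of 2.51 to 6.87, 2.31 to 6.97 and 2.94 to 8.33, with at most 46.9 estimated counts in CM. TTN-201 (ENST00000342175.11), novex-2, was at 0 in all CP libraries and at 71.9 in CM, at least 24.0-fold higher. Among 36 titin pairs, 7 differed.

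**Figure D2:**
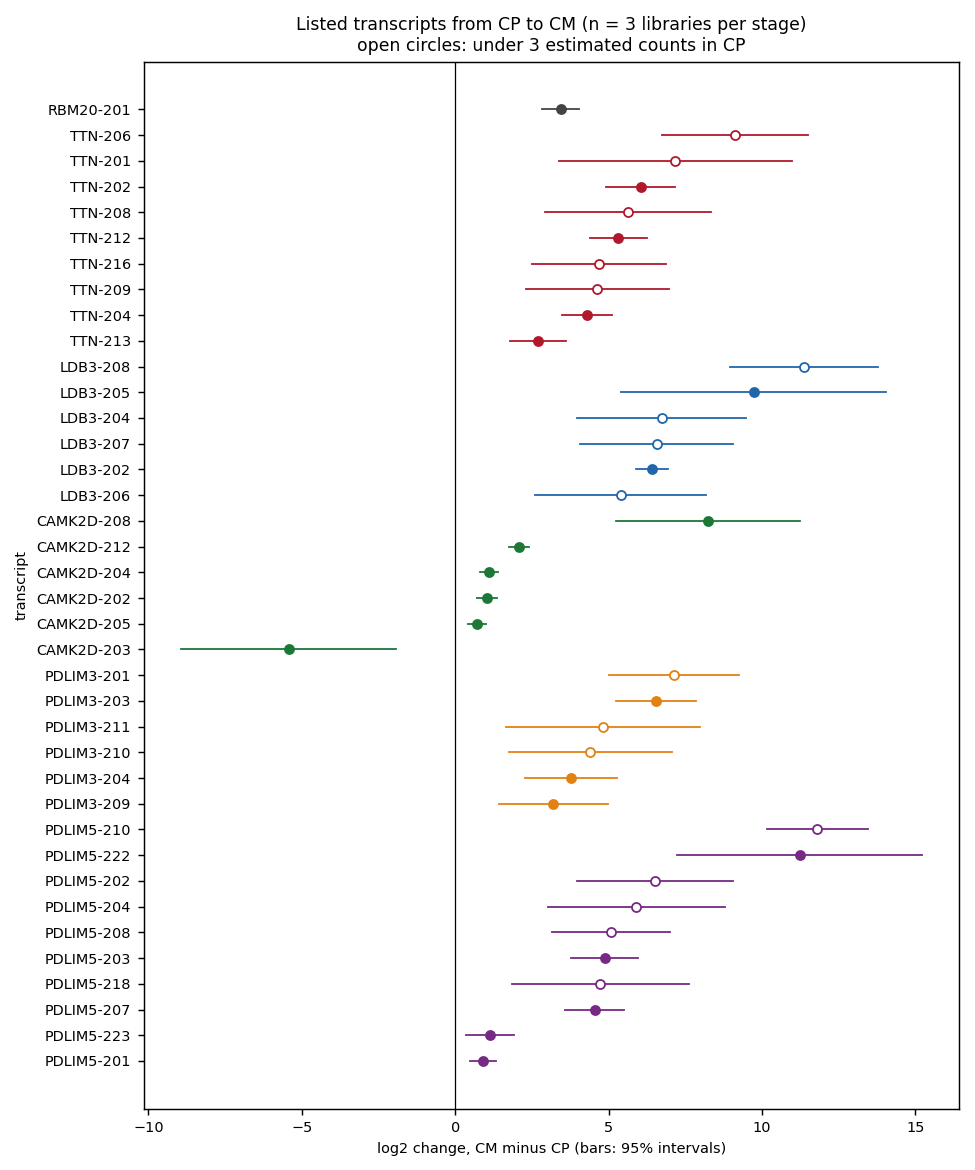
Log2 change from CP to CM of the 38 listed member transcripts (x axis, with 95% intervals), colored by gene, with open circles for transcripts under 3 estimated counts in CP. CAMK2D-203 is the 1 transcript to the left of 0, at -5.43, and PDLIM5-201 and PDLIM5-223 sit near 1 while the other *PDLIM5* transcripts lie above 4.

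*LDB3* rose in all 6 of its listed transcripts. LDB3-202 had 348 estimated counts in CP and 29773 in CM, a log2 change of 6.42 ± 0.27 (q = 1.66e-125). LDB3-205 (ENST00000429277.6), the long form with the 204-base exon printed above, rose by 9.73 ± 2.20 (q = 0.000131), from 9.17 to 8209.6, with a residual SD of 2.69, the widest of the members. LDB3-208 (ENST00000623007.3), a short form without LIM domains, rose from 0.665 to 3064 estimated counts, by 11.36 ± 1.23, 95% interval 8.95 to 13.77 (q = 1.91e-18), more than LDB3-202 did (difference -4.94 ± 1.26, q = 0.000830). The share of LDB3-202 among the listed *LDB3* transcripts per kilobase was 96.0% in CP and 60.5% in CM, with 20.1% for LDB3-208 and 17.8% for LDB3-205 in CM. The other 3 transcripts ended between 20.6 and 138 estimated counts. Of 15 *LDB3* pairs, 3 differed.

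Of the listed *CAMK2D* transcripts, 4 were called higher and 1 lower. CAMK2D-208 (ENST00000508738.5), with the 33-base exon, rose by 8.25 ± 1.53 (q = 1.50e-06), from 3.34 to 1164 estimated counts. CAMK2D-203 (ENST00000379773.6), which lacks both the 33-base and the 42-base exon, fell by 5.43 ± 1.79 (q = 0.0168), from 246 to 5.23. Its call was lost at a q-value limit of 0.01, with a t distribution, with a Bonferroni adjustment and with a minimum mean of 100 estimated counts. The difference between the 2 transcripts was 13.68 ± 2.36, q = 1.62e-07. Both had wide spreads between libraries, with residual SDs of 1.88 and 2.06 on the log2 scale, against 0.11 to 0.20 for the other 4.

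The other *CAMK2D* transcripts changed less. CAMK2D-212 (ENST00000513132.5), incomplete at its 5′ end, rose by 2.09 ± 0.17 (q = 2.94e-34), CAMK2D-204, with the 42-base exon, by 1.11 ± 0.15 (q = 2.98e-11) and CAMK2D-202 (ENST00000342666.9) by 1.05 ± 0.17 (q = 1.01e-08). CAMK2D-205 had 2832 estimated counts in CM, the most of the gene before division by length. Per kb it stood at 535, under CAMK2D-212 (816), CAMK2D-208 (792) and CAMK2D-202 (698). CAMK2D-205 was listed at 0.71 ± 0.14 (q = 1.43e-05), under the size limit. It rose less than CAMK2D-212, the difference being -1.38 ± 0.22, q = 1.09e-08. The share of CAMK2D-208 per kilobase was 0.190% in CP and 24.4% in CM. Of 15 *CAMK2D* pairs, 12 differed.

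*PDLIM3* had 6 transcripts called higher. PDLIM3-203, with the 188-base exon, rose by 6.54 ± 0.66 (q = 4.94e-21), from 34.6 to 3273 estimated counts. PDLIM3-201 (ENST00000284767.11), with the 68-base and 264-base exons in its place, rose by 7.14 ± 1.08, 95% interval 5.01 to 9.26 (q = 1.47e-09), from 0.401 to 127. Their changes differed by -0.60 ± 1.27, q = 0.848, within its error, and the 188-base form stayed ahead, at 1231 against 45.1 per kb in CM. The 4 retained-intron transcripts were called higher as well. PDLIM3-211 (ENST00000515261.1) was at 0 in all CP libraries and at least 4.54-fold higher in CM, and PDLIM3-210 (ENST00000514308.3) changed by 4.40 ± 1.36, 95% interval 1.74 to 7.06. PDLIM3-204 (ENST00000504011.5), the most abundant of them, rose less than PDLIM3-203, which exceeded it by 2.77 ± 1.01, q = 0.0337. PDLIM3-209 (ENST00000514142.5) also rose less, PDLIM3-203 exceeding it by 3.34 ± 1.13, q = 0.0180. The share of PDLIM3-204 was 25.9% in CP and 5.23% in CM. Of 15 *PDLIM3* pairs, 3 differed.

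*PDLIM5* changed its main transcript. PDLIM5-201, without the 18-base exon, held 66.1% of the listed *PDLIM5* transcripts per kilobase in CP and 11.3% in CM. It rose by 0.91 ± 0.21 (q = 0.000205), from 2399.8 to 4519 estimated counts. PDLIM5-222 (ENST00000615540.4), with the 18-base, 120-base, 144-base and 132-base exons, rose by 11.22 ± 2.04 (q = 8.08e-07), from 7.05 to 18053, and held 43.9% in CM. PDLIM5-210 (ENST00000508216.5), a short form that ends before the LIM domains, was at 0 in all CP libraries and at 1789 in CM, at least 596-fold higher (q = 3.44e-42).

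Both forms rose more than PDLIM5-201. The difference of PDLIM5-201 from PDLIM5-222 was -10.31 ± 2.05, q = 8.73e-06, and that from PDLIM5-210 was -10.89 ± 0.87, q = 1.19e-33. The latter rests on the pseudocount of 0.5 for the CP level. PDLIM5-207 (ENST00000503974.5), which has the 18-base exon and none of the 3 longer ones, rose by 4.54 ± 0.49 (q = 1.85e-18), and PDLIM5-223 (ENST00000627587.2), a target of nonsense-mediated decay, by 1.13 ± 0.39 (q = 0.0255). The other 5 ended between 29.4 and 381 estimated counts. Of 45 *PDLIM5* pairs, 25 differed, so all members together had 50 of 126, beside 20.5% of the 10002 pairs over all genes. Only *PDLIM5* and *CAMK2D* (12 of 15) were above that share. *TTN* (7 of 36), *LDB3* (3 of 15) and *PDLIM3* (3 of 15) were near it.

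**Figure D3:**
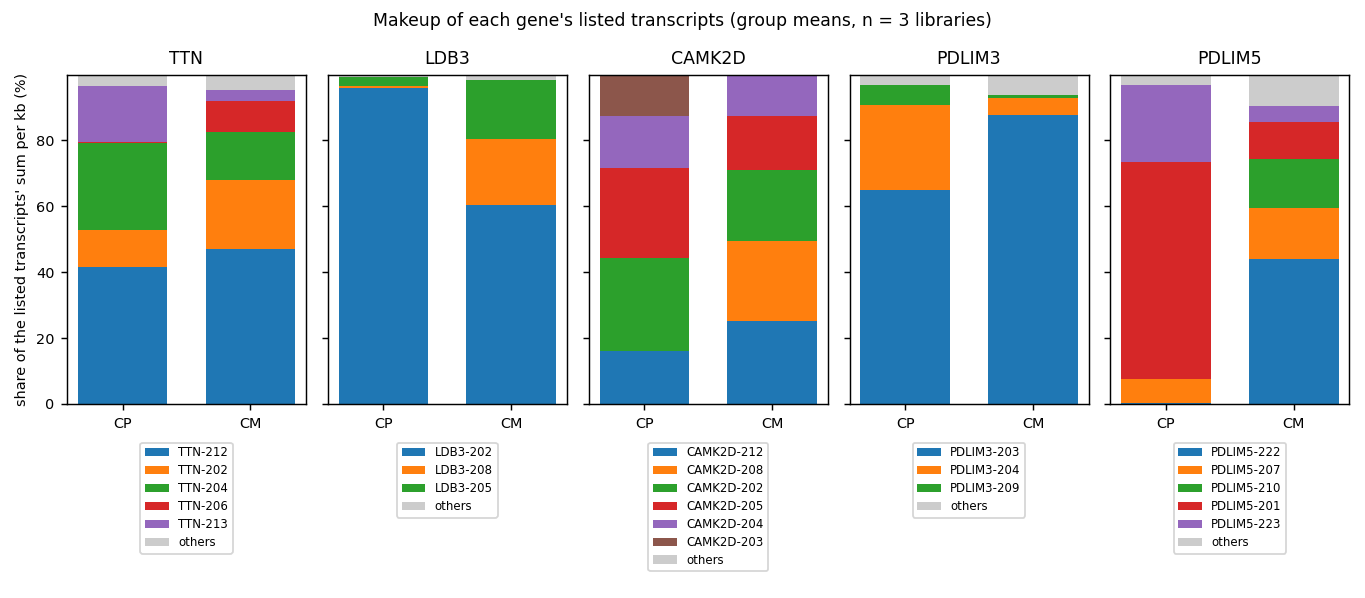
Makeup of 5 member genes in CP and CM, as the percent share of each listed transcript in the sum of estimated counts per kb of the gene's listed transcripts (bars stack to 100%, group means of 3 libraries, gray for transcripts under 5% in both stages). PDLIM5-201 goes from 66.1% to 11.3%, and CAMK2D-208 appears in CM at 24.4%.

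Of the 38 listed, 23 had a geometric mean under 100 estimated counts over both stages, and restricting the test to the rest left 14 called higher and 8 differing pairs. With the t distribution, 5 of the 36 remained called and 0 of the 50 pairs, while 561 transcripts of the whole series remained called. Kallisto divides reads among overlapping transcripts, so errors of 2 transcripts of a gene are not independent.

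Each gene of a list was counted by its most abundant called transcript. Of all 6380 genes called from CP to CM, 3367 were higher and 3013 lower. The 18 other genes reported as *RBM20* splicing targets were all called higher, with a median log2 change of 4.25. Among them were *MYH7*, the slow myosin heavy chain, at 10.84 ± 0.27, the cardiac ryanodine receptor *RYR2* at 5.11 ± 0.20 and *CACNA1C*, the L-type calcium channel, at 6.62 ± 0.29. Of 16 titin-binding and sarcomere genes, 14 were higher and 1, the protease *CAPN3*, was lower. Of 12 other splicing regulators, 7 were higher and 3 lower. *RBM24*, a regulator of muscle splicing, changed by 1.95 ± 0.22 and *QKI*, another one, by 1.37 ± 0.17, whereas *PTBP1*, which represses muscle exons in other cells, changed by -1.65 ± 0.30, *CELF1* by -1.01 ± 0.14 and the kinase *SRPK1* by -1.16 ± 0.25. Of 6 other PDZ and LIM domain genes 4 were higher and 1 lower. Of 10 CaMKII relatives and substrates 7 were higher and 1 lower. Among the higher, phospholamban (*PLN*) changed by 7.60 ± 0.18 and the calcium pump *ATP2A2* by 4.01 ± 0.19. All 12 cardiomyocyte markers were called higher in CM as well, their listed transcripts summing to 18828 estimated counts in CP and 625589 in CM. All 4 smooth muscle markers were higher, with sums of 10173 and 32105. Pluripotent markers summed to 43132 in CP and 150.5 in CM (4 of 5 lower), endoderm and epithelial markers to 30464 and 2455 (4 of 5 lower), endothelial markers to 7216 and 811 (2 of 4 lower) and mesenchymal markers to 53991 and 12572 (4 of 7 lower and 2 higher). The part of cell makeup in the members' rise was not tested.

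In the UBE2B-/- CMs, *RBM20* mRNA and nearly all listed transcripts of its targets were lower than in wild type. For line 1, 18 member transcripts were listed, of which 16 were called lower and 0 higher. Of the 65457 tested, 1.72% were called lower and 2.18% higher, which is 1123 and 1425 of the 3088 listed in the series. For line 2, 17 were listed, 16 called lower and 1 higher, beside 1.53% and 2.46%, which is 1001 and 1609 of the 3134 listed. The lines were compared with the same 3 wild-type libraries, so they are given side by side and are not independent of each other. The 1 *UBE2B* transcript in these tables is a form without a coding sequence (ENST00000499038.2), at -1.91 ± 0.53 in line 1 and not listed for line 2. The coding mRNA of *UBE2B* was not listed for either line, so the edit is not checked by these values. The median log2 change of the members called was -1.86 in line 1 and -1.81 in line 2.

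*RBM20* averaged 8814 estimated counts in wild-type CMs, against 2548 for line 1 and 2433 for line 2. Its change was -1.79 ± 0.37 in line 1 (q = 0.000200) and -1.86 ± 0.37 in line 2 (q = 8.74e-05), beyond the residual SD of 0.45 of the 9 libraries.

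N2B and N2A titin declined by more, in size, than any listed transcript of the other 5 genes. N2B averaged 143479 estimated counts in wild-type CMs, against 15994 for line 1 and 21456 for line 2, a change of -3.17 ± 0.69 in line 1 (q = 0.000531) and -2.74 ± 0.69 in line 2 (q = 0.00411). N2A averaged 79549 estimated counts in wild-type CMs, against 5448 for line 1 and 9209 for line 2, a change of -3.87 ± 0.78 in line 1 (q = 0.000115) and -3.11 ± 0.78 in line 2 (q = 0.00366). TTN-214 (ENST00000589042.5), the longest annotated form with 363 exons, changed by -2.99 ± 0.55 in line 1 (q = 1.68e-05) and -2.38 ± 0.55 in line 2 (q = 0.00135), and novex-3 by -2.43 ± 0.35 in line 1 (q = 4.75e-09) and -2.24 ± 0.35 in line 2 (q = 9.64e-08).

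The long forms did not decline beyond N2B by more than the errors. The difference of N2B from N2A was 0.70 ± 1.04, q = 0.799 in line 1 and 0.37 ± 1.04, q = 0.987 in line 2. The fragment TTN-206 changed by -4.03 ± 0.99 in line 1 (q = 0.00322) and -3.73 ± 0.99 in line 2 (q = 0.00774). TTN-213, with a retained intron, changed least of the titin transcripts, by -1.17 ± 0.36 in line 1 (q = 0.0311) and -1.64 ± 0.36 in line 2 (q = 0.000588). In line 1 its decline was smaller than that of N2A (difference -2.69 ± 0.86, q = 0.0112), of TTN-214 (-1.82 ± 0.66, q = 0.0331) and of TTN-206 (-2.85 ± 1.06, q = 0.0381). In line 2 none of the 15 titin pairs passed, and the difference between TTN-206 and TTN-213 was -2.09 ± 1.06, q = 0.184. TTN-209 was listed for line 1 alone, at -3.85 ± 1.16, 95% interval -6.12 to -1.58 (q = 0.0256).

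Summed over the listed transcripts per kilobase, *TTN* stood at 11.8% of wild type in line 1 and 15.1% in line 2. The same sums were 26.6% and 22.4% for *PDLIM5*, 28.9% and 27.6% for *RBM20*, 35.9% and 32.0% for *LDB3* and 50.1% and 50.3% for *CAMK2D*. These sums hold only transcripts listed for a line. They leave out forms that were not, such as PDLIM5-201 and PDLIM5-207 (748 and 1025 per kb in CM of the stage comparison) and CAMK2D-208 and CAMK2D-204 (792 and 406), so they are not the decline of the whole gene. *PDLIM3* was listed for neither line.

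**Figure D4:**
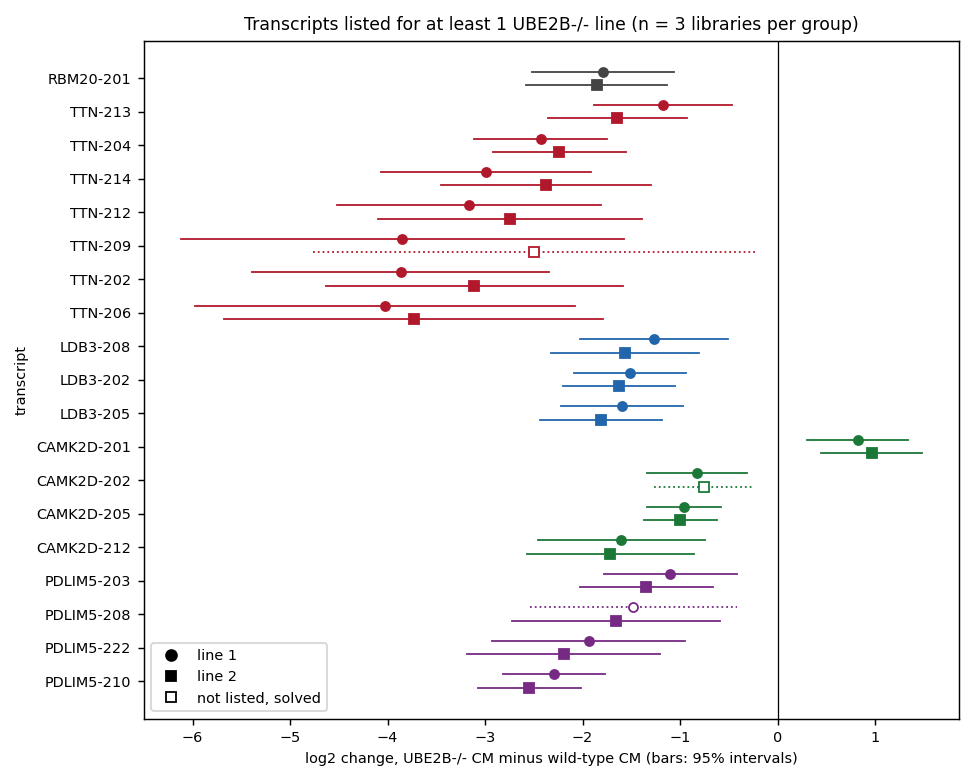
Log2 change of the 19 member transcripts listed for at least 1 UBE2B-/- line against wild-type CMs (x axis, 95% intervals), circles for line 1 and squares for line 2, colored by gene. Open symbols are the 3 values that were not listed and were solved from the variance columns, and CAMK2D-201 is the 1 transcript to the right of 0.

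*LDB3* was lower in 3 of its transcripts in both lines. LDB3-202 averaged 34357 estimated counts in wild-type CMs, against 11999 for line 1 and 11145 for line 2, a change of -1.52 ± 0.29 in line 1 (q = 5.19e-05) and -1.62 ± 0.29 in line 2 (q = 8.94e-06). LDB3-205 changed by -1.60 ± 0.32 in line 1 (q = 0.000101) and -1.81 ± 0.32 in line 2 (q = 4.80e-06), and the short LDB3-208 by -1.27 ± 0.39 in line 1 (q = 0.0286) and -1.56 ± 0.39 in line 2 (q = 0.00340). None of the 3 *LDB3* pairs passed in either line, and LDB3-205 and LDB3-208 differed by -0.33 ± 0.50, q = 0.810 in line 1 and by -0.25 ± 0.50, q = 0.952 in line 2. Long and short forms were lower alike in direction, with differences inside their errors.

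*CAMK2D* had transcripts on both sides of 0 in each line. CAMK2D-205 averaged 3268 estimated counts in wild-type CMs, against 1679.9 for line 1 and 1637 for line 2, a change of -0.96 ± 0.19 in line 1 (q = 0.000115) and -0.997 ± 0.19 in line 2 (q = 4.62e-05). CAMK2D-201 averaged 473 estimated counts in wild-type CMs, against 836 for line 1 and 924 for line 2. It was called higher in line 2, at 0.97 ± 0.26 (q = 0.0101), while its 0.82 ± 0.26 in line 1 (q = 0.0423) was just under the size limit. The difference of CAMK2D-205 from CAMK2D-201 was -1.78 ± 0.33, q = 1.17e-06 in line 1 and -1.96 ± 0.33, q = 6.30e-08 in line 2, so the estimates of these 2 transcripts moved apart in each line. The test takes their errors as independent, although Kallisto divides reads between overlapping transcripts such as these.

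CAMK2D-205 and CAMK2D-201 share 16 of 18 exons and skip both exons printed above. CAMK2D-201 starts with a 924-base first exon where that of CAMK2D-205 has 442 bases, and its 273-base second-to-last exon has 229 bases in CAMK2D-205. Nearly all the bases in which they differ are untranslated. CAMK2D-212, which has the 273-base exon as well, changed by -1.60 ± 0.44 in line 1 (q = 0.0106) and -1.72 ± 0.44 in line 2 (q = 0.00481), and differed from CAMK2D-201 by -2.42 ± 0.51, q = 2.63e-05 in line 1 and by -2.68 ± 0.51, q = 2.92e-06 in line 2. CAMK2D-202 was listed for line 1 alone, at -0.83 ± 0.26 (q = 0.0363), under the size limit. CAMK2D-208 and CAMK2D-204, with the 33-base and 42-base exons, and CAMK2D-203 were listed for neither line.

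*PDLIM5* was lower in each of its transcripts listed for a line. All 10 *PDLIM5* transcripts listed between CP and CM had risen there, so a rise did not set these apart. PDLIM5-222 averaged 20832 estimated counts in wild-type CMs, against 5433 for line 1 and 4546 for line 2, a change of -1.94 ± 0.50 in line 1 (q = 0.00623) and -2.20 ± 0.50 in line 2 (q = 0.00118). PDLIM5-210, the short form, averaged 2065 estimated counts in wild-type CMs, against 420.3 for line 1 and 353 for line 2, a change of -2.30 ± 0.27 in line 1 (q = 5.48e-14) and -2.55 ± 0.27 in line 2 (q = 1.40e-17). PDLIM5-203 (ENST00000359265.8), a 3-exon form, changed by -1.10 ± 0.35 in line 1 (q = 0.0374) and -1.35 ± 0.35 in line 2 (q = 0.00537). It declined less than PDLIM5-210, the difference being -1.19 ± 0.44, q = 0.0356 in line 1 and -1.20 ± 0.44, q = 0.0345 in line 2. PDLIM5-208 (ENST00000504489.3), also of 3 exons, was listed for line 2 alone, at -1.66 ± 0.54 (q = 0.0484). PDLIM5-201, the main form of the progenitors, was listed for neither line.

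**Figure D5:**
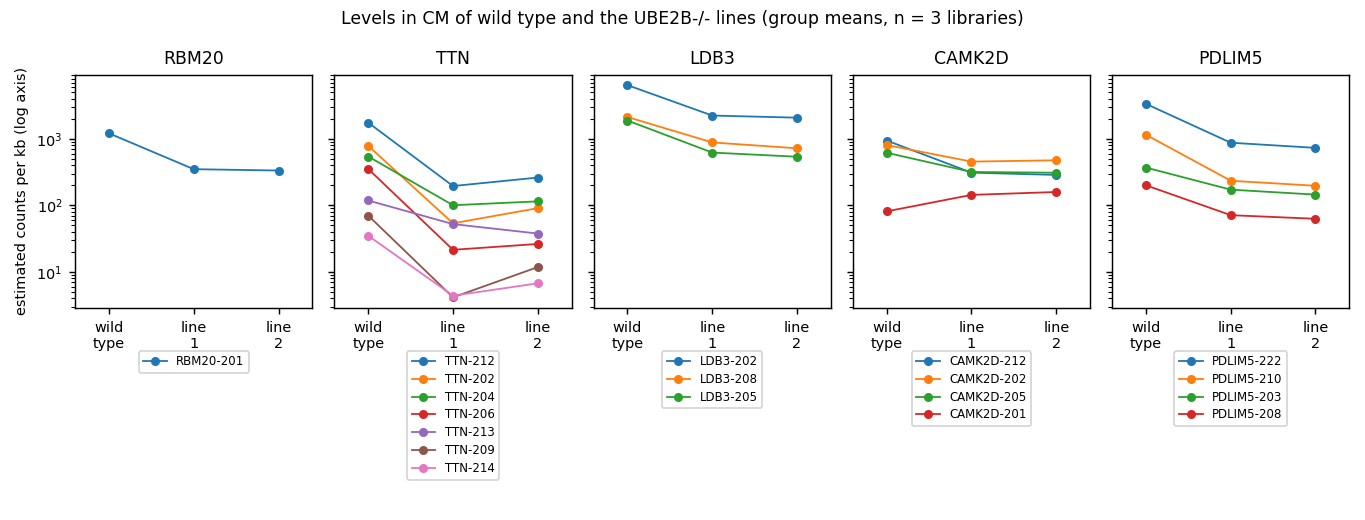
Levels per kilobase (estimated counts per kb, log axis) of the 19 transcripts in wild-type CMs, line 1 and line 2, 1 panel per gene, each point a group mean of 3 libraries. N2B (TTN-212) goes from 1749 per kb to 195 and 262, and CAMK2D-201 from 81.2 to 144 and 159.

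In all, 7 of 33 member pairs differed in line 1 and 3 of 27 in line 2, beside 20% of 916 and 19.4% of 1051 pairs over all genes. The lines were also set against each other. For the 16 member transcripts listed in both, the difference between the lines ranged in size from 0.0375 to 0.757 on the log2 scale, with 95% intervals of ± 0.378 to ± 1.95, and unadjusted p from 0.195 to 0.856. None passed, and of all 1992 transcripts listed for both lines 0% passed, while 29 had an unadjusted p under 0.05 in this Wald test. These intervals are wide, so the values do not show that the lines are alike.

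Markers of other cell types moved with these results. Of 12 cardiomyocyte markers, 7 were called lower in line 1 and 9 in line 2, with 0 higher. Their listed transcripts summed to 262288 estimated counts in wild-type CMs, to 99588 for line 1 and to 81284 for line 2, ratios to wild type of 0.380 and 0.310. Troponin T, *TNNT2*, changed by -1.48 ± 0.42 and -1.77 ± 0.42, close in size to *RBM20*. Of 7 mesenchymal markers, 3 and 5 were called higher, and the list summed to 12693, 124127 and 295758. The collagen *COL3A1* changed by 3.51 ± 0.79 and 4.81 ± 0.79. Pluripotent (5 genes) and skeletal muscle (3 genes) markers were not listed, and of the smooth muscle, endothelial and endoderm lists 1 gene each was listed: *CNN1* lower in both lines, *KDR* higher and *EPCAM* lower in line 2. The part of cell makeup in the members' changes was not tested.

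Of the other reported *RBM20* targets, 12 of 18 were called lower and 1 higher in each line. Their medians were -1.59 and -1.71, beside 0.99 and 1.09 over all called genes. Of all called genes, 837 of 2010 were lower in line 1 and 726 of 2014 in line 2. The medians over all called genes mix both directions and are not typical sizes of change. *RYR2* changed by -2.61 ± 0.56 and -2.13 ± 0.56, and *NEXN*, a Z-disc actin-binding protein, by -1.68 ± 0.21 and -1.87 ± 0.21. The 1 higher was *RTN4*, a reticulon of the endoplasmic reticulum, in a transcript that was at 0.701 estimated counts in wild type and 872 and 633 in the lines. Of the other splicing regulators, 3 were lower and 1 higher of 12 in each line. *QKI* changed by -1.57 ± 0.32 and -1.29 ± 0.32, *RBM24* by -1.64 ± 0.47 and -1.68 ± 0.47, and *PTBP1* by 1.43 ± 0.26 and 1.32 ± 0.26. Of 16 titin-binding genes, 8 and 9 were lower and 1, *OBSL1*, was higher in each line. Of the PDZ and LIM domain relatives, 2 of 6 were higher in each line and *CSRP3* lower in line 2. Of the CaMKII list, 2 of 10 were lower, 1 was higher and 7 were not called in each line. Of the lower ones, *PLN* changed by -1.997 ± 0.37 and -1.995 ± 0.37, and *ATP2A2* by -1.66 ± 0.53 and -1.66 ± 0.53.

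With a t distribution of 6 residual degrees of freedom, 0 of the calls for the lines remained, and 0 over all transcripts in the series. All 18 and all 17 listed transcripts kept an unadjusted p under 0.05, which the q-value limit for listing had already ensured. Of the pairs, 3 of the 7 pairs in line 1 and 2 of the 3 in line 2 remained with the t distribution.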

How the data were processed

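RNA-seq of 21 libraries was used as 6 deposited transcript tables: 4 between adjacent stages and 2 of each UBE2B-/- line against wild type, the latter from 1 fit of 9 libraries. The authors quantified transcripts with Kallisto on hg38 and ran the Wald test of Sleuth. The deposited p-values and q-values are from that test, and only transcripts with q of at most 0.05 are in the tables. The deposited coefficients, their SE and the mean levels are on a natural log scale of normalized estimated counts plus 0.5. The deposited variance columns, treated as scores, are on the squared scale. These are the authors' own estimates, since no values of single libraries were used. p-values measure the spread between 3 libraries per group, each from its own plate.

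Coefficients were converted to log2. Group levels were solved from the mean and the coefficient, less 0.5, and divided by spliced length in GENCODE 44. Stages were set on 1 scale by the median offset of shared transcripts. The number tested was solved from p and q. A change listed for 1 line only was solved for the other from the variances. Differences between transcripts of a gene, and between lines, were tested with the normal distribution, two-sided, with Benjamini-Hochberg adjustment over all such pairs or transcripts. The formulas and call rules were tested on simulated data. A fold from a group at 0 was taken against 3 counts as the group mean.

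Named transcripts were, per gene and table, the most abundant, the 2 largest by z in each direction, those opposite to the most abundant and the pair farthest apart by z, with all of *RBM20* and *TTN*, and others were named for the exons printed. Members and lists were chosen with earlier results of these data known. Of the CaMKII list, 1 gene is counted but is not reported here by name. Alternatives were other limits, a t distribution, a Bonferroni adjustment and a filter on low levels. Python 3.11.15, pandas 2.3.3, NumPy 2.4.6, SciPy 1.17.1 and Matplotlib 3.10.9 were used.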

Additional observations from a re-analysis of the deposited data

How the results depend on the processing

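A t distribution on the residual degrees of freedom left 0 member calls in iPSC to M, M to CMes, CMes to CP and both UBE2B-/- lines. From CP to CM it left 5 of 36 higher and 0 of 1 lower. Over all transcripts of the series it left 561 called from CP to CM, 1 from CMes to CP and 0 in the other comparisons. Among pairs of transcripts it left 0 from CP to CM, 0 of 2 in the earlier steps, 3 of 7 in line 1 and 2 of 3 in line 2. A Bonferroni adjustment left 1 of 4 higher and 0 of 1 lower from iPSC to M, 1 of 2 higher and 0 of 1 lower from M to CMes, 21 of 36 higher and 0 of 1 lower from CP to CM, 7 of 16 lower in line 1, and 6 of 16 lower and 0 of 1 higher in line 2. A q-value limit of 0.01 left 2 higher from iPSC to M, 1 higher from M to CMes, 0 lower from CP to CM, 0 higher in line 2, 3 pairs in line 1 and 1 pair in the earlier steps. A mean of at least 100 estimated counts left 2 higher and 0 lower from iPSC to M, 1 higher and 0 lower from M to CMes, 14 higher and 0 lower from CP to CM, 8 pairs from CP to CM and 4 pairs in line 1. A correlation of -0.5 between the estimates of transcripts of a gene left 4 pairs in line 1 and 1 in the earlier steps. With a size limit of the natural log of 1.5, or with no size limit, 4 calls were gained: CAMK2D-201 higher in line 1 (1 call), CAMK2D-202 lower in line 1, CAMK2D-205 higher from CP to CM and PDLIM5-201 higher from CMes to CP. Of 202 within-gene orders of per-kilobase levels, 198 kept their order with 200 bases taken off each length and 201 with the pseudocount kept in. No paired analysis was possible because the tables hold no values of single libraries, and for the same reason leaving out each replicate in turn was not run. The depth of the libraries is unknown.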
